A study of Mus musculus with 16 samples.

Results

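Short deletions of 2 to 4 bp were described at 912 distinct sites of a meiotic recombination hotspot on mouse chromosome 1. They were chosen by their length: every listed sequence with 2 to 4 deleted bases whose aligned sequence was as long as its amplicon was kept. Each deletion was moved to its left-most possible position, and sequences with the same left-most start and length were counted as 1 site. The 912 sites made up 48.7% of the 1872 distinct deletions of any length and held 103777 of the 107192 reads listed with a deletion (96.8%). Another 182 distinct deletions were 5 to 10 bp long and 778 were 11 bp or longer.

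The study sequenced 4 overlapping PCR products (amplicons) of the hotspot in each of 4 genotypes, which gave 16 libraries, 1 for each genotype and amplicon. The genotypes were Atm-/-, Atm+/-, Atm+/+ and Spo11-/-, all on the C57BL/6 background and all adults aged 2 to 5 months. The labels name spermatocytes as the cell type, but the DNA came from testicular cell suspensions and no sort is described. The whole suspension of the mutant testes was used, and a part of that of the wild-type testes. The labels call the Atm-/- and the Spo11-/- samples null. Spermatocytes without ATM or without SPO11 stop during meiosis, so testes of these mutants lack the later germ cells that wild-type testes hold, and the makeup of the suspensions cannot be told apart from the genotype. The number of animals behind a library is not given in the sources used here, so the p-values describe how far the libraries differ among themselves, and that spread may be technical. The amplicons were made with 22 cycles of PCR. Libraries held between 2.92 and 5.33 times 1e6 reads, and a count of 0 in a library allowed up to 0.562 to 1.03 reads per 1e6 reads (3 reads of the total).

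The library identifiers in the labels carry a letter that sorts the 16 libraries into 4 groups of 4 libraries. What the letter stands for is not stated, and the groups are called submission sets here as a name only. The first set is all of Atm-/-, so genotype and set cannot be told apart there. The second holds Atm+/+ amplicons 1 and 2 with Atm+/- amplicons 3 and 4. The third holds Spo11-/- amplicons 1 and 2 with Atm+/+ amplicons 3 and 4, and the fourth holds Atm+/- amplicons 1 and 2 with Spo11-/- amplicons 3 and 4.

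Meiotic recombination starts when SPO11 cuts both DNA strands at hotspots, and the kinase ATM responds to the cuts and limits their number. Deletions of a few bases also arise in tandem repeats without a break, when a DNA polymerase slips and the new strand pairs again out of register by a whole repeat unit, in cells or during PCR. Such a deletion removes a unit from a run of copies, and it can then be placed at several neighbouring positions without changing the product. The number of positions by which a deletion can be moved, here called its shift, therefore measures the repeat at the site. A site whose shift was at least as large as the deletion was counted as a tandem repeat, since the removed unit is then present in at least another full copy.

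The stretch ran from chr1:33764688-33765556 (mm10) and was 869 bp long. It lies within Zfp451, a protein-coding zinc finger gene on the minus strand (gene ID 98403) that spans 33761541 to 33815602. Exons and introns were not analysed here. Amplicon 1 covered 33764688 to 33765262, amplicon 2 covered 33764797 to 33765375, amplicon 3 covered 33764915 to 33765491 and amplicon 4 covered 33764983 to 33765556. At their listed positions no members lay within 20 bp of an end of their amplicon (8 of 4625 pairs of a library and a site came closer once moved left), so a site closer than that to an end was taken as not covered by the amplicon. The stretch at least 20 bp inside all 4 amplicons was 33765003 to 33765242, which is 240 bp, and is called the inner shared stretch.

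These sequences are shown as examples of each repeat context, because the values that follow are given by context. They are the site with the most reads, 4 other tandem repeats of 3 or 4 bp, 2 CA repeats, a 2-bp site with a shift of 1 and a neighbour of the first site. The capitals mark the whole run over which the deleted bases can be moved, with 20 bases on either side, in the order of rising coordinates. Each name gives the left-most start, the deleted length and the window shown.
Start 33764964, 4 bp deleted, shift 11, chr1:33764944-33764998: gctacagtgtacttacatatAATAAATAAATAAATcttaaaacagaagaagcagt
Start 33765032, 3 bp deleted, shift 6, chr1:33765012-33765060: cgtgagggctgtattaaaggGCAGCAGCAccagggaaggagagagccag
Start 33765079, 3 bp deleted, shift 6, chr1:33765059-33765107: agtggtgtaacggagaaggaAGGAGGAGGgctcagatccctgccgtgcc
Start 33765176, 4 bp deleted, shift 7, chr1:33765156-33765206: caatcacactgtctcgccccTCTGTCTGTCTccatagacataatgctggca
Start 33765073, 4 bp deleted, shift 6, chr1:33765053-33765102: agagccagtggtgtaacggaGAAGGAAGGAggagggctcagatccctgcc
Start 33765160, 2 bp deleted, shift 3, chr1:33765140-33765184: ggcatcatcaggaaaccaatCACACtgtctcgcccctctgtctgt
Start 33764769, 2 bp deleted, shift 2, chr1:33764749-33764792: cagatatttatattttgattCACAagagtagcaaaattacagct
Start 33765117, 2 bp deleted, shift 1, chr1:33765097-33765139: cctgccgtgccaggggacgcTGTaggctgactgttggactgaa
Start 33764976, 4 bp deleted, shift 0, chr1:33764956-33764999: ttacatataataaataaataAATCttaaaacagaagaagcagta
The first sequence holds a run of 15 bp made of 3.75 copies of AATA. The next pair of sequences holds 3 copies of GCA and of AGG, and the runs of TCTG and GAAG hold 2.75 and 2.5 copies. The last sequence is a site with no repeat of its own at the right end of the AATA tract, and is shown because its product differs from that of the tract by 1 base.

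The AATA tract alone held 60755 reads, which was 58.5% of all reads with a deletion of 2 to 4 bp. The site is a 4-bp deletion with a shift of 11 that removes 1 AATA unit, and it was present in 12 of the 12 libraries whose amplicon covers it. In amplicons 1, 2 and 3 it made up 1048, 1310 and 1342 reads per 1e6 reads in Atm-/-. The same amplicons gave 1387, 1547 and 1341 in Atm+/-. They gave 1041, 1137 and 1393 in Atm+/+, and 1100, 1131 and 1690 in Spo11-/-. The ranges of the 4 genotypes overlapped, and the highest library of all was Spo11-/- amplicon 3. For Atm-/-, Atm+/-, Atm+/+ and Spo11-/- the means were 1233 ± 161, 1425 ± 108, 1190 ± 182 and 1307 ± 332, in this order (SD, n = 3 each). The tract lies outside amplicon 4, whose 4 libraries therefore have no value.

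**Figure D1:**
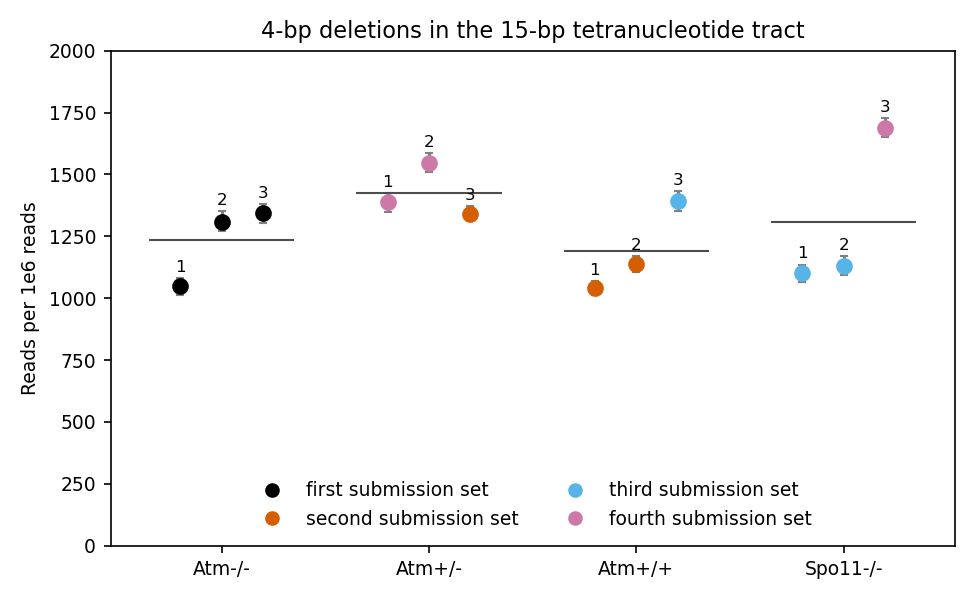
Reads per 1e6 reads with the 4-bp deletion in the 15-bp AATA tract, by genotype, for the 12 libraries whose amplicon covers it. Points are libraries with exact 95% Poisson bars (counting error only), the number above a point is its amplicon, the colour is the submission set and the line is the genotype mean (n = 3); the libraries run from 1041 to 1690, and the 4 genotypes overlap.

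None of the 3 genotype comparisons at the AATA tract passed the test, with amplicon kept as a block. Atm-/- differed from the other 3 genotypes by a log2 value of -0.07 (exact permutation test, two-sided, p = 0.578). Spo11-/- differed from Atm+/+ and Atm+/- by -0.02 (exact permutation p = 0.778), and in single amplicons by -0.23 to 0.31. Atm+/- exceeded Atm+/+ by 0.27 (exact permutation p = 0.5, where 0.25 is the smallest p that 8 assignments allow). The adjusted p was 0.778 for each, over the 6 tests at the 2 sites with the most reads. By submission set the means were 1233 ± 161 in the first, 1173 ± 153 in the second, 1208 ± 161 in the third and 1541 ± 151 in the fourth (SD, n = 3 each). The library of the fourth set was the highest of its amplicon in 3 of 3 amplicons, which was noticed in the values and was not tested. In amplicon 1 the tract lies in the middle 41 bp of the amplicon, and in amplicons 2 and 3 it does not.

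The second most frequent site was a 3-bp deletion in GCAGCAGCA at 33765032, with 2831 reads in 16 of 16 libraries. It made up 42.6, 47.8, 53.3 and 53.7 reads per 1e6 reads in amplicons 1 to 4 of Atm-/-. The values were 48.1, 43.8, 42.0 and 48.5 in Atm+/-, and 38.2, 39.3, 48.8 and 48.9 in Atm+/+. In Spo11-/- they were 38.6, 44.6, 47.3 and 54.1. All 4 genotypes overlapped, and the mean over the 16 libraries was 46.2. The log2 difference of Atm-/- from the other 3 was 0.13 (exact permutation p = 0.0742, adjusted p = 0.445 over 6). Spo11-/- against Atm+/+ and Atm+/- gave 0.04 (exact permutation p = 0.556) and Atm+/- against Atm+/+ gave 0.06 (exact permutation p = 0.75).

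The 3 lengths differed in how their reads were spread over sites. Deletions of 2 bp were found at 521 sites with 32603 reads, those of 3 bp at 257 sites with 7566 reads and those of 4 bp at 134 sites with 63608 reads. Of the placements that the sequence allows, 521 of 601 were seen for 2 bp (86.7%), 257 of 605 for 3 bp (42.5%) and 133 of 577 for 4 bp (23.1%), with a further 4-bp site outside the counted placements. Just outside the length limit, deletions of 5 bp were found at 52 sites with 212 reads (8.44% of placements) and those of 6 bp at 33 sites with 57 reads. Deletions of 1 bp were not analysed here.

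Sites with a larger shift had more reads. Among 2-bp deletions the median over the sites found was 7 reads at shift 0 (358 sites), 52.5 at shift 1 (120 sites), 114 at shift 2 (30 sites), 258 at shift 3 (9 sites) and 325 at 4 or more (4 sites). Among 3-bp deletions the medians in the same order were 1, 3, 9, 23.5 and 405 reads. Among 4-bp deletions they were 1, 1, 3, 5 and 866 reads. These medians are over sites with at least 1 read, so the share of placements seen is given with them. Over all lengths, 44.3% of the placements of shift 0 were seen, 65.2% of shift 1, 74.1% of shift 2, 92.0% of shift 3 and 100% of shift 4 or more (12 placements). Each merged site pools all the positions its deletion can take. A larger shift pools more of them, which by itself can raise the reads and the share seen, and no value per position is given. Sites share libraries, and longer shifts are rare, so these are descriptions with no test.

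**Figure D2:**
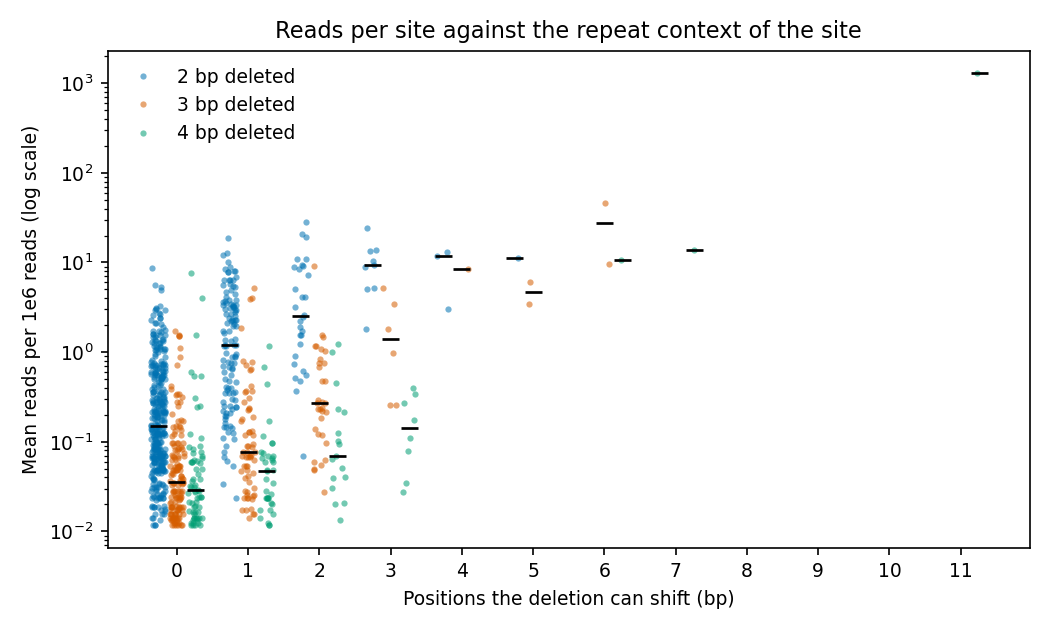
Mean reads per 1e6 reads of each of the 912 sites (log scale), over the libraries that cover it, against the number of positions the deletion can be shifted. Colours are the deleted length and black bars are medians over the sites found. For 2 bp the median rises from 0.15 reads per 1e6 reads at shift 0 to 9.26 at shift 3, and the single site at shift 11 is the AATA tract.

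Tandem repeats were few among the sites and held most of the reads. The 57 tandem sites made up 6.25% of the 912 sites and held 78906 reads (76.0%). Without the AATA tract their share of the remaining reads was 42.2%. Of the possible tandem placements 57 of 57 tandem placements were seen, against 854 of 1726 placements with a smaller shift (49.5%). For 4 bp, 3 tandem sites held 97.9% of the reads. For 3 bp, 11 tandem sites held 63.1%, and for 2 bp, 43 tandem sites held 36.3%. At the other end, 223 sites (24.5%) rested on 1 read summed over all libraries, and 1 of these was a tandem site.

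The tandem repeats differed in the unit and in the number of its copies. After the AATA tract, the 4-bp units were TCTG at 33765176, with 866 reads and a mean of 13.9 reads per 1e6 reads, and GAAG at 33765073, with 662 reads and a mean of 10.8. Both were present in 16 of 16 libraries. At 33765176 the libraries ran from 10.2 to 18.8, and the means of Atm-/-, Atm+/-, Atm+/+ and Spo11-/- were 11.2 ± 1.07, 15.4 ± 2.02, 15.3 ± 2.53 and 13.6 ± 2.18 (SD, n = 4). At 33765073 they ran from 7.49 to 15.9, with means of 10.6 ± 2.31, 10.3 ± 1.34, 11.8 ± 3.02 and 10.3 ± 2.02 in the same order. The genotypes overlapped at 33765073. At 33765176 the Atm-/- libraries (10.2 to 12.2) overlapped those of Spo11-/- (11.7 to 16.7) and lay below those of the other 2 genotypes.

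Among units of 3 bp, the 2 placements of the GCA family of units held 2941 reads, nearly all at 33765032. The AGG run at 33765079 held 603 reads and its mean was 9.62 reads per 1e6 reads. It made up 7.20, 6.83, 7.81 and 7.71 in amplicons 1 to 4 of Atm-/-, and 12.2, 11.9, 11.8 and 9.99 in Atm+/-. The values were 9.81, 10.4, 10.1 and 7.99 in Atm+/+, and 8.98, 9.60, 10.0 and 11.5 in Spo11-/-. Every Atm-/- library lay below every library of the other 3 genotypes, and the smallest of these was 7.99 in Atm+/+ amplicon 4. In the fit across sites this log2 difference was -0.48 (edgeR's quasi-likelihood test, adjusted p = 0.255), and the share of fitted deletions called in that comparison was 0%. The 4 Atm-/- libraries are also the first submission set. A smaller repeat, ACAAC at 33764895 (3 bp, shift 2), lies in amplicons 1 and 2 and held 283 reads, with a mean of 9.15.

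Among deletions of 2 bp, the highest 2 means were at CA repeats. The CACA at 33764769 is covered by amplicon 1 alone, where Atm+/+ reached 43.5 reads per 1e6 reads, Atm+/- 33.2, Atm-/- 18.8 and Spo11-/- 17.1. Each value is 1 library. In this order the libraries are in the second, the fourth, the first and the third set, so genotype and set cannot be told apart there. The CACAC at 33765160 held 1533 reads in 16 of 16 libraries. Its values in amplicons 1 to 4 were 19.9, 18.2, 23.4 and 22.2 in Atm-/-, and 19.4, 22.3, 29.4 and 30.8 in Atm+/-. They were 29.0, 29.8, 26.2 and 24.9 in Atm+/+, and 21.9, 20.9, 26.3 and 23.5 in Spo11-/-. The highest 4 of these were the 4 libraries of the second submission set, at 29.0 to 30.8. The CACA at 33765007 held 1221 reads with a mean of 19.1 per 1e6 reads. Its Atm-/- libraries ran from 15.1 to 16.3 and those of the other 3 genotypes from 11.99 to 29.5.

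Runs of a single base were also sites of 2-bp deletion. The AAAA at 33764982 held 1005 reads with a mean of 20.7 reads per 1e6 reads over 12 libraries, and the TTTTT at 33765437 held 450 reads with a mean of 13.8 over 8 libraries. Over the 43 tandem sites of 2 bp, the 13 with a single base had a median of 5.03 reads per 1e6 reads and the 30 with 2 different bases had 4.70. A run of the same base can also be changed by a deletion of 1 bp, which was not analysed here. The TTT at 33765398 is too short to be counted as a tandem repeat (shift 1), and it still held 599 reads with a mean of 18.5 over 8 libraries. The TGT at 33765117 was likewise of shift 1 and held 831 reads with a mean of 12.6 over 16 libraries.

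In the inner shared stretch, the reads of 2-bp deletions differed between the deleted base pairs, read as the left-most placement. CA stood highest, with a mean of 54.4 reads per 1e6 reads over 18 placements, or 3.02 per placement. Most of the CA mean came from the CACAC at 33765160, with 24.3, and the CACA at 33765007, with 19.1. GT held 2.60 per placement over 6 placements, CT 2.15 over 12 and TG 2.05 over 12. Of the TG mean of 24.6, the TGT at 33765117 held 12.6. The values per placement thus also depend on single sites and their repeats, and are not a property of the deleted bases alone. The lowest were AC with 0.137 over 7 placements and GC with 0.0845 over 12. A CACA run placed at its left-most base counts under CA and not under AC.

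**Figure D3:**
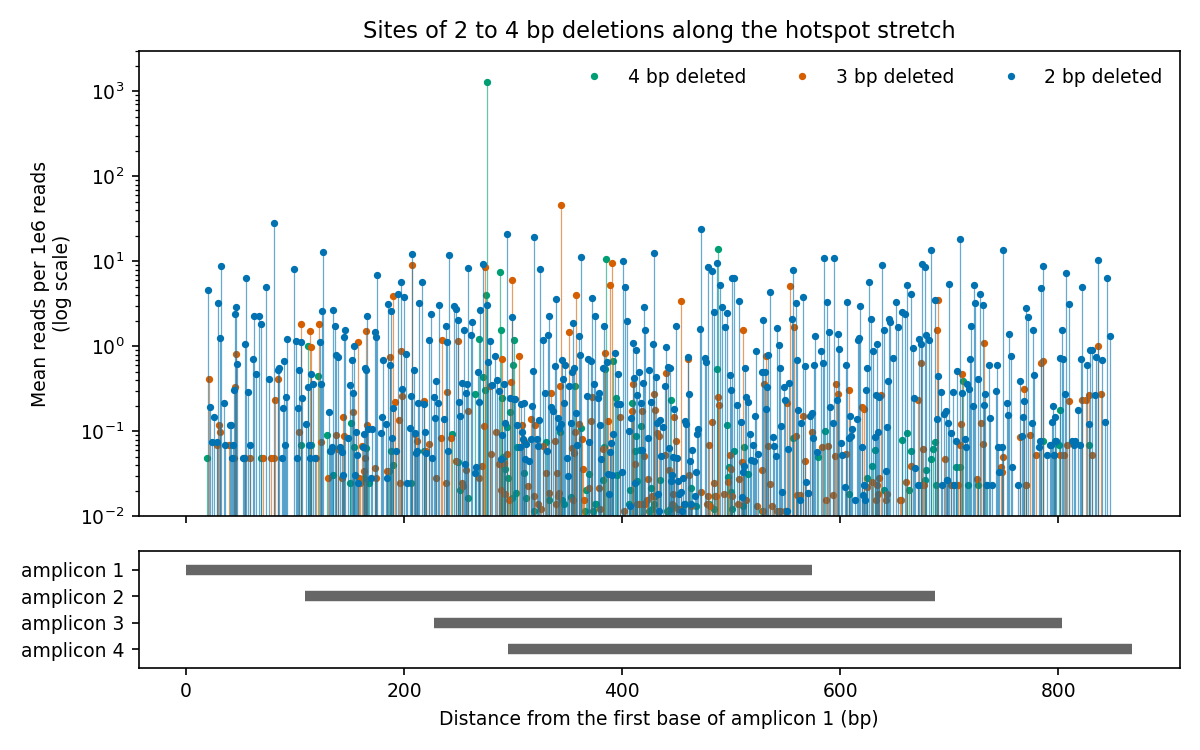
Mean reads per 1e6 reads of each site (log scale) along the stretch, by distance from the first base of amplicon 1, with the 4 amplicons drawn to scale below. Sites were found along the whole stretch between the outermost 20 bp, and the tallest stem, at 276 bp, is the AATA tract at 1289 reads per 1e6 reads.

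Along the stretch, the sites were found in every 50-bp window except the last, which lies within 20 bp of the end of amplicon 4. In the windows that all 4 amplicons cover whole, the reads without the AATA tract differed by window. The window 33765138 to 33765187 held 90.1 ± 24.7 reads per 1e6 reads (SD, n = 16) with 7 tandem sites, and the window 33765038 to 33765087 held 66.2 ± 12.9 with 6. The window 33765088 to 33765137 held 49.0 ± 24.6 with 1 tandem site. The lowest, 33765188 to 33765237, held 35.4 ± 17.2 with 0 tandem sites. These 4 windows followed the order of their number of tandem sites, which is a description of 4 windows with no test. The order did not hold in windows that fewer amplicons cover whole. There 33764988 to 33765037 held 91.9 ± 19.0 (n = 12) with 2 tandem sites, and 33764738 to 33764787 held 61.7 ± 30.1 (n = 4) with 6.

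The same sites came back in library after library. In the inner shared stretch 329 sites were found with 21203 reads. Of these, 38 sites (11.6%) were present in 16 of 16 libraries and held 79.0% of the reads. At the other end, 86 sites (26.1%) were present in 1 library and held 0.424% of the reads. Of the 17 tandem sites in that stretch, 14 were present in all 16 libraries and 0 in 1 library alone. Over the whole stretch, 162 sites were present in all the libraries that cover them and held 91.6% of the reads, and 50 of these were tandem sites of the 57.

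**Figure D4:**
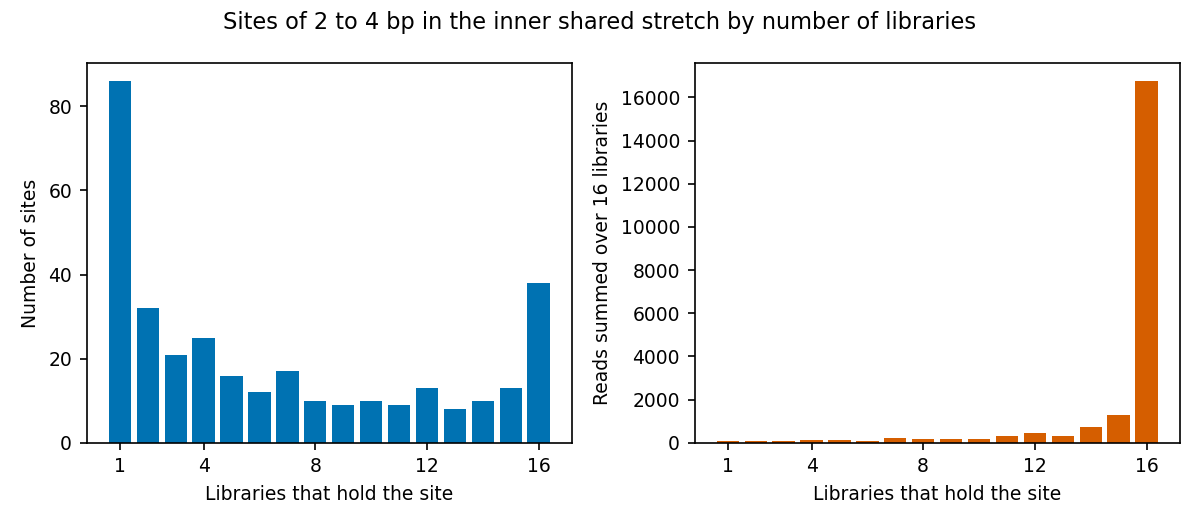
Number of sites (left) and reads summed over the 16 libraries (right) in the inner shared stretch, by the number of libraries that hold the site. The 86 sites held by 1 library carry 90 reads, and the 38 sites held by all 16 libraries carry 16760 reads.

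Genotypes of the same amplicon shared most of their reads. Amplicon 1 had 492 sites over the 4 genotypes, of which 145 were found in all 4 (29.5%) and held 94.7% of the reads. For amplicons 2 and 3, 141 of 488 sites and 149 of 502 sites held 94.6% and 96.4% of the reads. For amplicon 4, which lacks the AATA tract, 138 of 442 sites held 87.4%. How alike 2 libraries ranked the sites was described by Spearman's correlation over the 136 sites with at least 10 reads in the inner shared stretch. Its median was 0.70 for the same amplicon with another genotype and set (24 pairs), and 0.69 where genotype, amplicon and set all differed (60 pairs). It was 0.71 for the same genotype and set with another amplicon (12 pairs), 0.67 for the same genotype with another set (12 pairs) and 0.77 for the same set with another genotype (12 pairs). The kinds of pair draw on different libraries, and the last kind holds no pair of the first set. Its pairs ran from 0.76 to 0.79 in the second set, from 0.61 to 0.69 in the third and from 0.75 to 0.85 in the fourth. Pairs of every kind overlapped, with single values of 0.58 to 0.85, and all pairs share the sequence context of the sites.

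Sites found in a single genotype held few reads. Of the 509 sites of Atm-/-, 34 were found in no other genotype (6.68%), with 38 reads in all. For Atm+/- these were 105 of 694 (15.1%) with 132 reads, for Atm+/+ 84 of 650 (12.9%) with 179 reads and for Spo11-/- 45 of 553 (8.14%) with 51 reads. In the same order of genotypes, from Atm-/- on, the mean depth was 3.41, 4.42, 4.03 and 3.58 times 1e6 reads. These counts followed the order of depth, and they are not separated from depth or from the submission set. Of the 179 reads of Atm+/+, 72 were at 33764989 in amplicon 1 alone. Of the sites found in a single genotype, Atm-/- had 1 in more than 1 of its amplicons, Atm+/- had 14, Atm+/+ had 6 and Spo11-/- had 3. The Atm-/- site, 33765018 (4 bp, GGCT), had 1 read in amplicon 3 and 3 reads in amplicon 4. In Atm+/- the 2 named were 33765106 (2 bp, 4 reads) and 33765186 (4 bp, 3 reads). Those of Atm+/+ were 33764845 and 33764944 (2 bp, 2 reads each), and those of Spo11-/- were 33765462 (3 bp, 3 reads) and 33765188 (3 bp, 2 reads). Each of these 7 sites had at most 3 reads in a library, so the other genotypes' count of 0 was not distinguishable from it at this depth.

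Some sites gave products close to a more frequent one. Of the 912 sites, 177 (19.4%) gave a product that differed by 1 base from that of a site of the same length with at least 10 times the reads. They held 2016 reads, which was 4.69% of the reads without the AATA tract. Such a site lies beside the AATA tract: the 4-bp deletion of AATC at 33764976 has a shift of 0 and held 368 reads in 12 of 12 libraries. It made up 6.92, 7.49 and 3.77 reads per 1e6 reads in amplicons 1, 2 and 3 of Atm-/-, and 6.09, 10.9 and 5.44 in Atm+/-. The values were 12.2, 16.8 and 2.98 in Atm+/+, and 5.39, 6.52 and 6.24 in Spo11-/-. Both the highest 2 and the lowest value belonged to Atm+/+, whose amplicons 1 and 2 are in the second set and amplicon 3 in the third.

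The comparisons of genotypes used 4 measures per library with amplicon as a block, and 16 such tests were adjusted together. The number of distinct sites was 71.1 ± 2.79 per 1e6 reads in Atm-/- (SD, n = 4) and 75.7 ± 8.13 in the other 12 libraries, a log2 difference of -0.08 (exact permutation p = 0.348, adjusted p = 0.556). At the depth of the shallowest library it was -0.24 (exact permutation p = 0.176). Reads with a deletion of 2 to 4 bp were 1408 ± 645 and 1703 ± 682 per 1e6 reads, a log2 difference of -0.30 (exact permutation p = 0.145, adjusted p = 0.556). The large SD of both groups includes amplicon 4, which lacks the tract. The percent of distinct sites in tandem repeats was 13.8 ± 0.48 and 11.9 ± 2.94, a difference of 1.86 points (exact permutation p = 0.289, adjusted p = 0.556). With substitution-free reads alone this difference was 5.23 points (exact permutation p = 0.043, before adjustment). The percent that were 2 bp long was 73.8 ± 1.54 and 71.8 ± 4.06, a difference of 2.02 points (exact permutation p = 0.328, adjusted p = 0.556).

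Short deletions were present in all 4 Spo11-/- libraries, and Spo11-/- had 73.3 ± 7.43 distinct sites per 1e6 reads (SD, n = 4) against 76.9 ± 8.69 in the 8 libraries of Atm+/+ and Atm+/-, a log2 difference of -0.06 (exact permutation p = 0.568, adjusted p = 0.649). In single amplicons this difference ran from -0.39 to 0.26. Reads were 1596 ± 706 against 1757 ± 712 per 1e6 reads, a log2 difference of -0.07 (exact permutation p = 0.815, adjusted p = 0.815). This turned to 0.40 when only reads free of substitutions were kept (exact permutation p = 0.136) and to 0.07 when the submission set was added to the block (exact permutation p = 0.716). The substitution-free reads were still divided by all reads of the library. Their mean share of the reads with a short deletion was 36.7% in Spo11-/-, 26.9% in Atm+/- and 27.6% in Atm+/+. The value of 0.40 is therefore not separated from that share. Shares in tandem repeats and of 2 bp were 2.07 and 1.64 points higher in Spo11-/- (exact permutation p = 0.321 and 0.543, adjusted p = 0.556 and 0.649). Blocking by set as well, they were -0.04 and -1.40 points.

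Atm+/- and Atm+/+ were compared over 4 amplicons, where the exact permutation test cannot go below 0.125. Atm+/- had 80.0 ± 6.15 distinct sites per 1e6 reads against 73.7 ± 10.6 (log2 difference 0.13, exact permutation p = 0.25, adjusted p = 0.556). Its reads were 1926 ± 688 against 1588 ± 796 per 1e6 reads (log2 difference 0.44, higher in each of the 4 amplicons, exact permutation p = 0.125, adjusted p = 0.556). Tandem and 2-bp shares differed by -2.13 and -2.44 points (exact permutation p = 0.5 and 0.625, adjusted p = 0.649 and 0.667). Without amplicon 4 the log2 difference in reads was 0.19 (exact permutation p = 0.25). Blocking by set as well, the log2 difference in reads was 0.16 (exact permutation p = 0.349), that in distinct sites was -0.02 and the tandem share differed by 0.09 points. With all reads and sites kept, none of the 12 genotype tests passed 0.05 before or after adjustment.

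The 2-bp deletions were spread by submission set. In the inner shared stretch 2-bp deletions made up 151 ± 11.9 reads per 1e6 reads in the first set, 326 ± 10.7 in the second, 132 ± 7.47 in the third and 270 ± 11.5 in the fourth (SD, n = 4 each). The libraries of the first and the third set (122 to 164) did not overlap those of the second and the fourth (256.4 to 342). The sets were grouped so after their values were seen, and this difference is given with no test.

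The 2 genotypes of a set overlapped. In the third set Spo11-/- had 132 and 137 reads per 1e6 reads and Atm+/+ had 139 and 122. In the fourth, Atm+/- had 256.4 and 273 and Spo11-/- had 284 and 267. In the second, Atm+/+ had 319 and 342 and Atm+/- had 319 and 325. Libraries of the same genotype in different sets did not overlap: Atm+/+ had 319 and 342 in the second set and 139 and 122 in the third, and Spo11-/- had 132 and 137 in the third and 284 and 267 in the fourth. The means of amplicons 1 to 4 were 214, 222, 227 and 217.

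**Figure D5:**
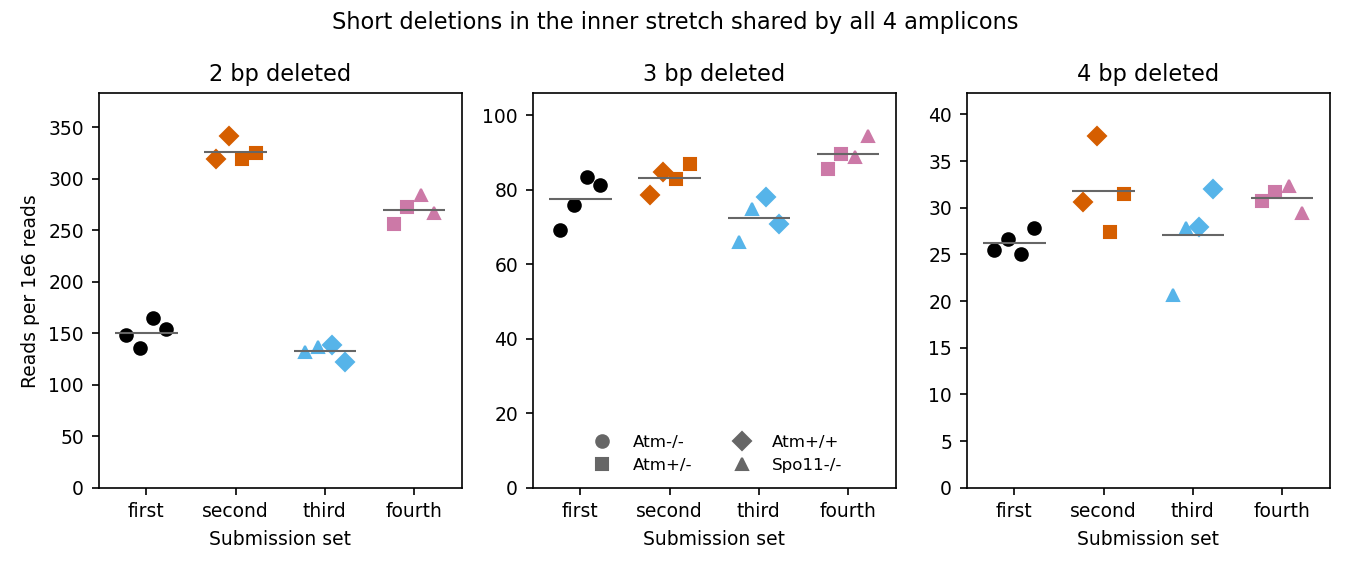
Reads per 1e6 reads with a deletion of 2, 3 or 4 bp in the inner shared stretch, by submission set, 1 point per library. The marker shape is the genotype, the colour is the set and the line is the set mean (n = 4); for 2 bp the second and the fourth set lie at 256.4 to 342 and the first and the third at 122 to 164, and for 3 bp the third set (65.9 to 78.0) lies below the fourth (85.5 to 94.4).

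Among 2-bp deletions, the ratio of the highest to the lowest set mean was largest at sites with no repeat. Deletions of 2 bp at shift 0 made up 23.6, 71.1, 20.6 and 56.1 reads per 1e6 reads in the first, the second, the third and the fourth set. At shift 1 the means were 57.2, 152, 46.6 and 117, and at a shift of 2 or more 69.9, 103, 65.2 and 96.4. Deletions of 3 bp were 77.4 ± 6.33, 83.2 ± 3.54, 72.3 ± 5.22 and 89.6 ± 3.71 (SD, n = 4), and those of 4 bp 26.2 ± 1.24, 31.8 ± 4.32, 27.1 ± 4.70 and 31.0 ± 1.27. For 3 bp the libraries of the third set (65.9 to 78.0) lay below those of the second (78.4 to 86.7) and the fourth (85.5 to 94.4), and for 4 bp those of the first (25.0 to 27.8) lay below those of the fourth (29.4 to 32.3). By shift, the 3-bp set means in the same order were 1.99, 7.59, 1.63 and 5.17 at shift 0. They were 11.5, 12.7, 10.6 and 12.1 at shift 1, and 63.9, 62.9, 60.1 and 72.3 at a shift of 2 or more. At shift 0 the first and the third set (at most 3.09 and 2.70) lay below the second and the fourth (at least 7.12 and 3.36) for 3 bp too. The percent of reads with a deletion of 2 to 4 bp that carried no substitution also differed by set. It was 26.2 to 29.6 in the first set, 19.0 to 21.3 in the second, 33.7 to 41.7 in the third and 31.2 to 35.0 in the fourth. Its part in the difference between sets was not tested.

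The second set was compared with the third and the fourth within amplicons, a comparison in which each set mixes 2 genotypes. Its share of distinct sites in tandem repeats was 9.15 ± 0.54 percent (SD, n = 4) against 13.3 ± 2.61 in the other 8 libraries, a difference of -4.19 points, lower in 4 of 4 amplicons. This passed 0.05 before adjustment and not after it (exact permutation p = 0.0247, adjusted p = 0.198 over 16). Its share of 2-bp sites was 68.2 ± 3.35 percent against 73.6 ± 3.18, a difference of -5.38 points that was negative in every amplicon (exact permutation p = 0.0247, adjusted p = 0.198). The second set was also the deepest, at 4.40 to 5.33 times 1e6 reads, and the part of depth in these shares was not tested. Both differences missed 0.05 when only substitution-free reads were kept, with exact permutation p = 0.222 and 0.42. Distinct sites per 1e6 reads and reads per 1e6 reads were 0.09 and 0.25 higher on the log2 scale (exact permutation p = 0.407 and 0.333, adjusted p = 0.593 and 0.556). Both depended on the setting. At the depth of the shallowest library the difference in distinct sites was 0.41 (exact permutation p = 0.0247). The difference in reads was 0.66 without the AATA tract (exact permutation p = 0.0494, a setting chosen after seeing the data) and -0.57 for reads without a substitution (exact permutation p = 0.037). Reads without a substitution were still divided by all reads of the library. Their mean share of the reads with a short deletion was 20.1% in the second set, 37.4% in the third and 33.7% in the fourth. The value of -0.57 is therefore not separated from that share.

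Single sites were tested in the stretch that all 4 amplicons cover, where 156 of the 192 deletions with at least 10 reads were 2 to 4 bp long. With edgeR's quasi-likelihood test and Benjamini-Hochberg adjustment, 0 of 156 passed an adjusted p of 0.05 in each of the 3 genotype comparisons, and the share called over all 192 was 0% in each. At an unadjusted p under 0.05 there were 21 sites for Atm-/- against the other 3 genotypes, 7 for Spo11-/- against Atm+/+ and Atm+/-, and 5 for Atm+/- against Atm+/+. DESeq2 called 1, 0 and 2 sites in the same order, and edgeR with TMM factors 0, 0 and 2. The median log2 difference over the 156 sites was -0.67 for Atm-/-, with 22 sites higher and 134 lower. It was -0.26 for Spo11-/- (45 higher, 111 lower) and 0.31 for Atm+/- against Atm+/+ (107 higher, 49 lower). By length, the Atm-/- median was -0.83 over 114 sites of 2 bp, -0.59 over 30 of 3 bp and -0.26 over 12 of 4 bp. This fit did not include the submission set. Atm-/- is the first set alone, and all Atm+/- libraries are in the second and the fourth, where 2-bp reads were higher. The directions are therefore not separated from the set, and sites share libraries, so the counts of higher and lower sites are not independent.

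Other settings called 3 sites. The 4-bp deletions at 33764988 (GAAG, 37 reads) and 33764989 (AAGA, 72 reads) lay near the middle of amplicon 1, and 36 and 72 of these reads came from Atm+/+ amplicon 1, which is in the second set. These 2 sites lie within 20 bp of the start of amplicon 4, where no member was listed, and with such sites left out 0 of 136 passed in each comparison. The 2-bp deletion of GT at 33765060 (a mean of 3.67 reads per 1e6 reads) passed for Atm+/- against Atm+/+ once the set was a further block, with a log2 difference of 1.42 (edgeR, adjusted p = 0.041). Without that block the difference was 1.33 (edgeR, adjusted p = 0.526). Its values in amplicons 1 to 4 were 6.09, 4.71, 9.75 and 9.99 reads per 1e6 reads in Atm+/- and 6.47, 5.68, 0.893 and 0 in Atm+/+. It was lower in Atm-/- (2.22, 0.976, 0.538 and 1.85) and in Spo11-/- (2.40, 1.37, 3.34 and 2.52) than in any Atm+/- library.

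Set against longer deletions of the same libraries, the short ones had a higher mean number of reads and came back more often. The mean number of reads per distinct deletion was 21.8 ± 8.55 for 2 to 4 bp (SD, n = 16), 1.81 ± 0.36 for 5 to 10 bp and 2.54 ± 1.93 for 11 bp or more. The percent of distinct deletions of a library found in another genotype of the same amplicon was 86.9 ± 6.87, 36.5 ± 13.1 and 17.3 ± 19.7 in the same order. In each of these 4 comparisons the short deletions were higher in 16 of 16 libraries (exact permutation test over 65536 sign patterns, p = 3.05e-05, adjusted p = 3.05e-05, the smallest p they can give). The 4 libraries of an amplicon enter each other's percent found in another genotype, so those values are not independent and their p is too small. Deletions of 2 to 4 bp also have only 1783 possible placements, while longer deletions can take many more lengths. Fewer possible products and more reads per site by themselves raise the percent found again. The p for that percent therefore says little beyond this. The libraries also share their most frequent sites, such as the AATA tract, which enter the mean of each. The lowest library for 2 to 4 bp held 6.27 reads per distinct deletion, in an amplicon without the AATA tract. The highest for 5 to 10 bp held 2.83 and the highest for 11 bp or more 8.53. A typical short site held few reads: the median in a library was 2 to 3, and 28.6 to 43.8% of its short sites had 1 read. Medians of the longer deletions are not given here.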

How the data were processed

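Each deposited table listed the distinct aligned sequences of 1 library that hold a single deletion, with the column layout of CRISPResso, an amplicon aligner, per the file headers, with release and options not given in the sources used here. Values used were counts of reads per sequence, which the authors deposited as whole numbers with no normalization. The deposited percent column, per the file headers, gives those reads as a share of the library, and reads divided by percent gave the depth. The build was mm10, per the submitters' processing notes. Whether positions count from 0 or 1 could not be checked without a genome, so they are printed as the files give them.

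From these files 70339 of 73567 listed sequences were members; 25 sequences not as long as their amplicon were left out. The reference was the most frequent base at each position (at least 93.3% of bases). Members and lists were chosen with earlier results of these data known. Rates entered the tests as log2 values after adding 0.5 to each count. Genotypes were exchanged only within an amplicon, since the 4 amplicons are shared by design and number the libraries. Every permutation test was exact and two-sided, with Benjamini-Hochberg adjustment. Single sites with at least 10 reads were fitted with edgeR 4.0.16 (R 4.3.3), library size being all reads, and with DESeq2 1.42.0 as an alternative. The edgeR fit was tested on simulated data, where it missed many of the changes put in, so a site that was not called may still differ. Placement and permutations used Python 3.11.15, pandas 2.3.3, numpy 2.4.6 and scipy 1.17.1. Reads carry no molecular identifiers, so the Poisson intervals at 95% cover counting error only.

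Sites are named by a rule: the 10 with the highest mean reads per 1e6 reads over libraries whose amplicon holds them, the 3 highest of each length, the 3 with the largest shift, up to 10 called in each fit, and per genotype the 2 with the most reads among those in 2 or more of its amplicons and in no other genotype. Means printed in the text leave out amplicons in which the site lies within 20 bp of an end. Named outside the rule, after their values were seen, were 33764976, 33764988, 33764989 and 33765060. The alternatives tried were other scalings, filters, blocks and sets of reads, sites or libraries.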

Additional observations from a re-analysis of the deposited data

Results flagged for a closer look

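In 48 groups of 4 libraries, the lowest or highest library was set against the nearest of the others, and 3 groups had a gap above Dixon's 95% critical value (chance alone gives about 1 in 20). Reads with a deletion of 2 to 4 bp were 901.2 per 1e6 reads in Atm+/- amplicon 4, where the next library had 2176. They were 403.5 in Atm+/+ amplicon 4, where the next had 1858. Amplicon 4 does not hold the AATA tract, which made up 1041 to 1690 reads per 1e6 reads in the libraries that cover it, and amplicon 4 was also the lowest in the other 2 genotypes, at 460.6 in Atm-/- and 785.1 in Spo11-/-. At the AGG run 33765079 the lowest Atm+/- library, amplicon 4, had 9.99 reads per 1e6 reads and the next 11.8, from 47 and 63 reads.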

How the results depend on the processing

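Of 270 alternative values, 240 kept their direction and their side of 0.05, 14 changed sign, 9 lost and 3 gained a p under 0.05, and 4 counts of sites moved. Rates of reads without substitutions were still divided by all reads of the library. In these reads, Spo11-/- against Atm+/+ and Atm+/- changed to 0.11 (log2) for distinct sites, 0.40 for reads and -0.24 points for the 2-bp share. There Atm-/- had a tandem share 5.23 points higher (exact permutation p = 0.043), and the second set against the third and the fourth gave -0.17 for distinct sites, -0.57 for reads (exact permutation p = 0.037), -3.30 points for the tandem share and -1.25 points for the 2-bp share. With submission set as a further block, Spo11-/- gave 0.071 for reads, -0.035 points for the tandem share and -1.40 points for the 2-bp share, and Atm+/- against Atm+/+ gave -0.019 for distinct sites and 0.089 points for the tandem share. For the second set, distinct sites expected at the depth of the shallowest library differed by 0.41 (exact permutation p = 0.0247), and reads without the AATA tract, an alternative chosen after seeing the data, by 0.66 (exact permutation p = 0.0494). Leaving out 1 amplicon at a time gave -0.17 to 0.044 for distinct sites and -0.22 to 0.078 for reads in Spo11-/-, and -5.36 to 0.12 points for the 2-bp share of Atm+/- against Atm+/+. For the second set it gave -4.60 to -3.73 points for the tandem share and -6.53 to -4.56 for the 2-bp share. The p then rose to 0.0741 (exact permutation over 27 assignments), except for the 2-bp share without amplicon 4. DESeq2 called 1 site for Atm-/- and 2 for Atm+/- against Atm+/+, TMM factors 2 and the set as a further block 1 for the latter. The cause of these changes was not tested. The amplicon numbers pair libraries by design; without this replicate block the log2 difference of Atm-/- in distinct sites was -0.08 and in reads -0.30 (exact permutation p = 0.324 and 0.554), and no call changed. A count of 0 allowed up to 0.562 to 1.03 reads per 1e6 reads, so sites of 1 to 3 reads could not be compared between libraries.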
